A study of Mus musculus with 7 samples.

Results

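CROC+K+M replicate 1 is 1 of 7 RNA sequencing libraries of mouse somatic cell nuclear transfer (SCNT) embryos, and it is described here through the genes that set it apart from the other 6. In an SCNT embryo the nucleus of a somatic cell, here a cumulus cell that surrounds the oocyte, replaces the oocyte's own chromosomes. The genes were chosen by their measured values. A higher member had an FPKM (sequenced fragments per kilobase of transcript, scaled to the number of mapped fragments) of 5 or more in this library and an FPKM + 1 at least 4-fold above that of the highest other library. A lower member had an FPKM + 1 at least 4-fold below that of the lowest other library. Of the 24319 rows in the table, 557 were higher members (2.29%) and 3 were lower members (0.0123%). Because the differences between this library and the others chose these genes, they are given as a description and carry no test.

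All 7 libraries were labelled as 2-cell embryos of the B6D2F1 strain with a wild type genotype, and all embryos had received an injection of mRNA of Kdm4a, a histone demethylase. FOC+K embryos (2 libraries) came from fresh recipient oocytes, and CROC+K embryos (3 libraries) from vitrified and warmed ones. CROC+K+M embryos (2 libraries) also came from vitrified and warmed oocytes and were exposed to melatonin at 10 µM, and a vehicle is named for the series without saying which samples received it. Each RNA sample was drawn from 50 to 100 pooled embryos with an RNA integrity number above 7.0, and the treatment protocol speaks of SCNT blastocysts as well as 2-cell embryos. The library has no replicate with its pattern, and the labels do not say that libraries of a group came from separate cultures, so no replicate error can be attached to its values.

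In the mouse, maternal transcripts stored in the oocyte run the first cleavage and are then cleared while the embryonic genome is switched on in a short burst of 2-cell genes. Compaction at the morula stage builds cell junctions. The outer cells then become the trophectoderm, a transporting epithelium that pumps the blastocoel fluid and later forms the placenta, while the inner cells become the inner cell mass, which splits into epiblast and primitive endoderm. Trophectoderm is marked by the transcription factor Cdx2 and by the keratins Krt8 and Krt18, which form the intermediate filaments of simple epithelia.

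Fabp3, Krt8, Krt18 and Cdx2 are trophectoderm markers that were higher members, so the 250 bases before their RefSeq transcription starts are shown, 5′ to 3′ on the gene's strand in GRCm38.p6. Capitals mark matches to motif letters searched on both strands: GGAATG for TEAD factors, AGATAA for GATA factors, GCCNNNGGC for TFAP2 factors and GGGCGG for the GC box. The 4 motifs were chosen after the values had been seen. Fabp3 (chr4:130308488-130308737, plus strand) has no match. Krt8 (chr15:102004343-102004592, minus strand) has 1 GATA match, and its neighbour Krt18 (chr15:102027966-102028215, plus strand) has 1 TFAP2 match. Cdx2 (chr5:147307250-147307499, minus strand) has 1 TFAP2 match near its start.
Fabp3: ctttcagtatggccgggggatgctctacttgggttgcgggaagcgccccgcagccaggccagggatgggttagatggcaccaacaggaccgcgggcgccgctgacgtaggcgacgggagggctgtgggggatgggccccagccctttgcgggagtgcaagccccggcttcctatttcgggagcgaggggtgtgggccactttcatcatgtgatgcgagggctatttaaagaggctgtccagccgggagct
Krt8: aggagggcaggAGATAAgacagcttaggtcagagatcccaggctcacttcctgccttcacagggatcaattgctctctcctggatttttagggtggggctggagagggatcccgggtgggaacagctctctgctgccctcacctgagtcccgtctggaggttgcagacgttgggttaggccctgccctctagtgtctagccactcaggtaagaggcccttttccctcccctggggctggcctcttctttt
Krt18: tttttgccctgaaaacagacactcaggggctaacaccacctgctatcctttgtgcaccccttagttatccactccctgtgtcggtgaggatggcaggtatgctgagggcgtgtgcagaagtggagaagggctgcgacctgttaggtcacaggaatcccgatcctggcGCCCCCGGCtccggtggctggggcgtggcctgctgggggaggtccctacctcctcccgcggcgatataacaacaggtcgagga
Cdx2: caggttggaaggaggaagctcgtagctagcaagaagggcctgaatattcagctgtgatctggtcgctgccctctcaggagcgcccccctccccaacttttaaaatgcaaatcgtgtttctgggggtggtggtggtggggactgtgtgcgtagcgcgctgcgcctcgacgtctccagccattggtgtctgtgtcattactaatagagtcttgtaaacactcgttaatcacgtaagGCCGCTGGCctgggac
Promoters were found for 451 genes of the higher members, with 563 starts. Shares are given for these promoters, for all 32851 promoters and for the 21751 promoters of genes in the table, in this order. The TFAP2 letters were in 17.9%, 13.7% and 16.4%, and the TEAD letters in 14.4%, 12.6% and 11.7%. The GATA letters were in 9.59%, 9.99% and 8.76%, and the GC box in 49.0%, 32.7% and 43.0%. The median GC content was 58% for the members' promoters, 52.4% for all promoters and 55.6% for those of genes in the table. A match is a run of letters and not a measured binding site.

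The higher members took 21.7% of the library's summed FPKM, against 1.81% to 2.41% in the other 6 libraries. Their FPKM summed to 220929, against 11405 to 17479 elsewhere. The genes outside the set summed to 797067, within the range of 540952 to 799677 in the other libraries, and the summed FPKM of all genes was 1017995, the highest of the 7, against at most 814958. Under the same rule each of the other libraries had 1 to 4 genes above and 0 to 12 below its companions. Some 11518 genes reached an FPKM of 1 in the library, against 10496 to 11349 in the others, and the injected Kdm4a stood at 2797, within the range of 497 to 4949. If the smallest steps between low values stand for 1 fragment, the table implies about 5300000 fragments in this library and 4200000 to 6560000 in the others. An FPKM of 5 in a gene of 2 kb would then rest on 53.0 fragments.

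**Figure D1:**
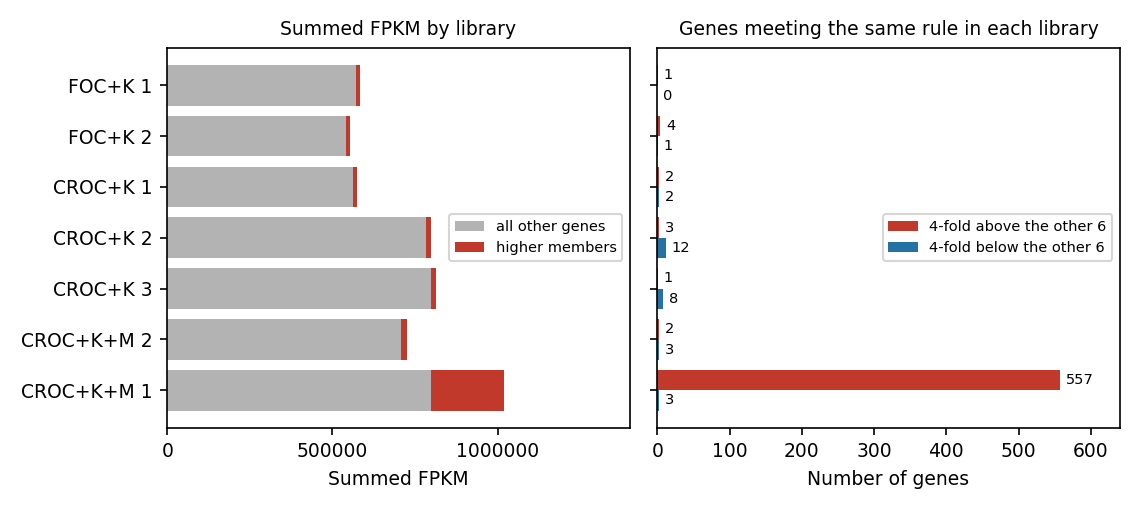
Left, the summed FPKM of each library, divided into higher members of CROC+K+M replicate 1 (red) and all other genes (grey). Right, the number of genes that meet the same 4-fold rule when each library in turn is set against the other 6; CROC+K+M replicate 1 has 557 above, and no other library has more than 4.

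Most of the higher members were expressed at low levels elsewhere. Their median FPKM was 62.0 in CROC+K+M replicate 1, and the median of the highest other value was 4.52. The median ratio was 7.32-fold, with 204 genes at 10-fold or more, 31 at 50-fold or more and 13 at 100-fold or more. In the other 6 libraries 116 members stayed under an FPKM of 1 throughout, 28 of them listed at 0 in all 6, while 259 reached an FPKM of 1 in every one. These ratios use FPKM + 1 and so understate the change of low genes. The members nearest the threshold were Lta4h at 4.02-fold, Ddost at 4.004-fold and Coa5 at 4.001-fold, and just outside it stood Vps29, Leprotl1 and Bsg, each at 3.98-fold. A further 18 rows passed the 4-fold ratio at an FPKM under 5. Among the members 49 rows had clone names and 3 were small RNA genes, and these were counted but not named.

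**Figure D2:**
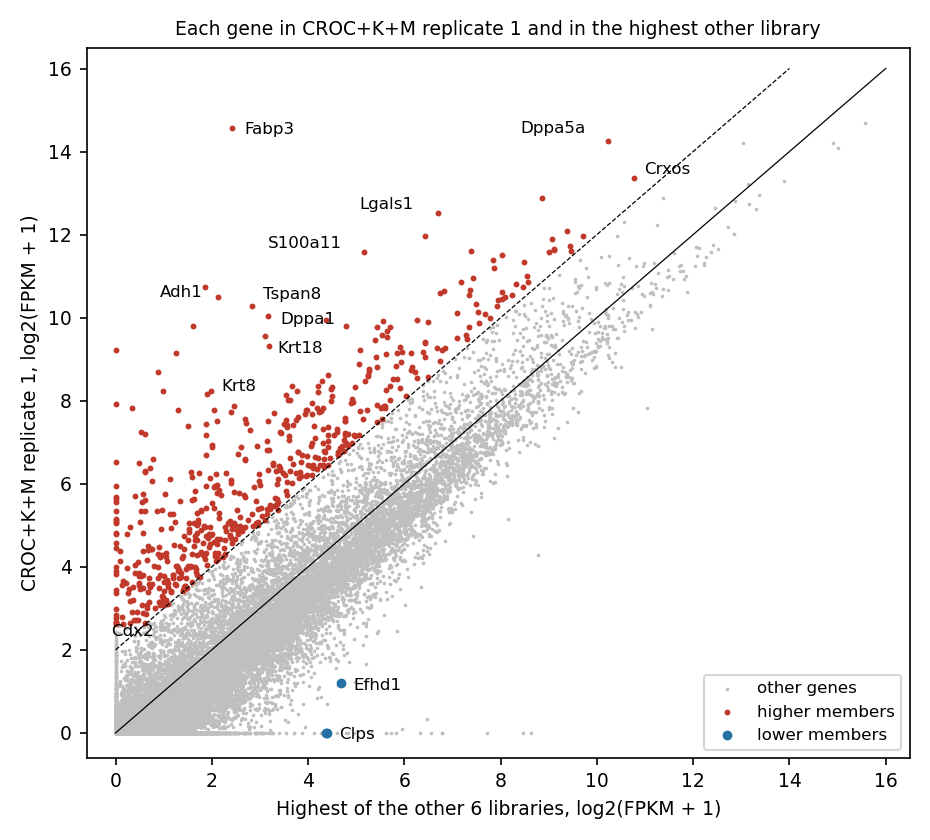
Each point is a gene, with log2(FPKM + 1) in the highest of the other 6 libraries on the x axis and in CROC+K+M replicate 1 on the y axis. The solid line marks equality and the dashed line a 4-fold higher value; the 557 higher members (red) lie above the dashed line, Fabp3 farthest from it, and the lower members (blue) were chosen against the lowest other library.

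Trophectoderm genes included Fabp3, the member with both the highest FPKM and the largest ratio. Of 38 genes in a list of trophectoderm markers, 22 were higher members, 31 were above all 6 other libraries and 2 were below all 6, while of all rows 19.2% were above and 10.1% below all 6 others. The median of the list was 3.01 higher than the mean of the other libraries on the log2 scale, against 0 over all rows. The list's FPKM summed to 35535 in this library and to 252 to 336 in the others. Most of the sum in this library came from Fabp3 at 24404 and Lgals1 at 5904, so it does not describe the list's typical gene. In bulk RNA a larger share of cells of a type and more RNA per cell cannot be told apart.

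Fabp3 encodes a fatty acid binding protein known from heart muscle and abundant in trophectoderm. It stood at an FPKM of 3.00 and 2.54 in FOC+K replicates 1 and 2, at 4.36, 3.55 and 2.38 in CROC+K replicates 1 to 3, at 0.32 in CROC+K+M replicate 2 and at 24404 in CROC+K+M replicate 1. CROC+K+M replicate 1 alone was high, 4554-fold above the highest other value, and the other melatonin library was the lowest of the 7. Krt8 was at 2.94 and 1.6 in FOC+K, at 0.51, 0.39 and 0.14 in CROC+K, at 0.47 in CROC+K+M replicate 2 and at 300.2 in CROC+K+M replicate 1. Its filament partner Krt18 was at 7.59 and 3.96 in FOC+K, at 5.59, 3.95 and 4.04 in CROC+K, at 1.001 in CROC+K+M replicate 2 and at 750.3 in CROC+K+M replicate 1. The ratios to the highest other library were 76.5-fold for Krt8 and 87.5-fold for Krt18. Of 48 keratin genes measured, 4 were higher members, the other 2 being Krt7 (20.2, against at most 0.60) and Krt19 (10.3, against at most 0.87).

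The transcription factors of the trophectoderm were at moderate levels. Cdx2, needed to specify the lineage, was at 6.97 and is listed at 0 in all 6 other libraries. Eomes, which acts with Cdx2 in trophoblast stem cells, was at 19.96 and at no more than 0.06 elsewhere. Elf5, another factor of trophoblast stem cells, was at 15.5 against at most 0.33, and Gata2 at 12.8 against at most 0.44. Factors that also act before the blastocyst were closer to the other libraries. Gata3 was at 38.0 against 3.51 to 14.7, Tfap2c at 13.1 against 1.77 to 4.43 and Klf5 at 94.3 against 12.1 to 26.1, each above all 6 but under 4-fold. Tead4, which drives Cdx2, was at 5.28 and at 5.29 in CROC+K+M replicate 2, with the other 5 libraries at 0 to 3.57. Hand1, a factor of trophoblast giant cells, is listed at 0 in the library.

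Surface and secreted products of trophectoderm were among the highest members. Tspan8, a tetraspanin, was at 3.95 and 6.17 in FOC+K, at 2.92, 2.09 and 5.04 in CROC+K, at 2.92 in CROC+K+M replicate 2 and at 1250.4 in CROC+K+M replicate 1. Dppa1, a gene named for its expression in pluripotent and early embryonic cells, was at 3.67 and 3.75, at 4.79, 7.99 and 5.08, at 4.5 and at 1060.3 in the same order. Lgals1, the carbohydrate-binding galectin-1, was at 66.8 and 25.4 in FOC+K, at 30.4, 103 and 63.0 in CROC+K, at 56.6 in CROC+K+M replicate 2 and at 5904 in CROC+K+M replicate 1. CROC+K+M replicate 1 was above the highest of the other 6 by 174-fold, 118-fold and 56.5-fold in these 3 genes. Plac1, an X-linked placental gene, was at 209 against 2.31 to 8.85, and Cldn4, a tight junction protein of tight epithelia, at 82.5 against at most 0.64.

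Genes of the inner cell mass and the primitive endoderm had list medians of 0.07 each on the log2 scale, which turned to -0.15 and -0.01 with every library scaled to the same FPKM sum. Of 33 genes of the inner cell mass and epiblast, 2 were higher members (6.06%) and 8 were above all 6 others (24.2%). Of all rows, 2.29% were higher members and 19.2% were above all 6 others. One of the 2 members in the list was Dppa5a, an RNA-binding protein of pluripotent cells. It was at 620 and 444 in FOC+K, at 325, 521 and 608 in CROC+K, at 1198 in CROC+K+M replicate 2 and at 19491 in CROC+K+M replicate 1. CROC+K+M replicate 1 was 16.3-fold above CROC+K+M replicate 2, which in turn was the highest of the other 6. The other was Tfcp2l1, a factor of naive pluripotency, at 7.63 against 0.20 to 1.13. Nanog, which defines the epiblast, was at 3.98 against 0.34 to 0.76, above all 6 but under the FPKM of 5 that the rule asks for. Sox2 at 0.67, Esrrb at 1.24 and Pou5f1 at 39.3 were within the range of the other libraries, and Fgf4, the inner cell mass ligand that directs primitive endoderm, was below all 6 at 0.80 against 1.17 to 5.95.

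Of 22 primitive endoderm genes 3 were higher members. Gata6, which specifies that lineage, was at 12.3 against 0.10 to 1.27, the endocytic adaptor Dab2 was at 81.4 against 15.1 to 17.2, and Cfc1, a Nodal co-receptor, was at 23.0 and is listed at 0 elsewhere. Sox17 and Foxa2 are listed at 0 in all 7 libraries. Gata4 at 2.67 was below the other libraries' 4.22 to 11.3, and Pdgfra at 0.06 was below their 0.07 to 0.92. With every library scaled to the same FPKM sum, 1 of the 22 met the rule, and Gata6 and Dab2 were 1.87 and 1.39 above the highest other library on the log2 scale. The name blastocyst-like refers to trophectoderm markers such as Cdx2, Krt8, Krt18 and Fabp3. The rule chose these genes by their high values in this library, so they cannot serve as a check of the name. Of the inner lineages, 23 of 33 genes of the inner cell mass and epiblast and 11 of 22 of primitive endoderm were within the others' range. In each list 8 were above all 6 (24.2% and 36.4%), and 2 and 3 were below all 6 (6.06% and 13.6%). Of all rows 19.2% were above and 10.1% below all 6. Of rows with an FPKM of 1 or more in all 6 others, 25.2% were above and 22.2% below. The inner cell mass share above all 6 was thus near that of rows in general. The library is therefore called by its label below.

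**Figure D3:**
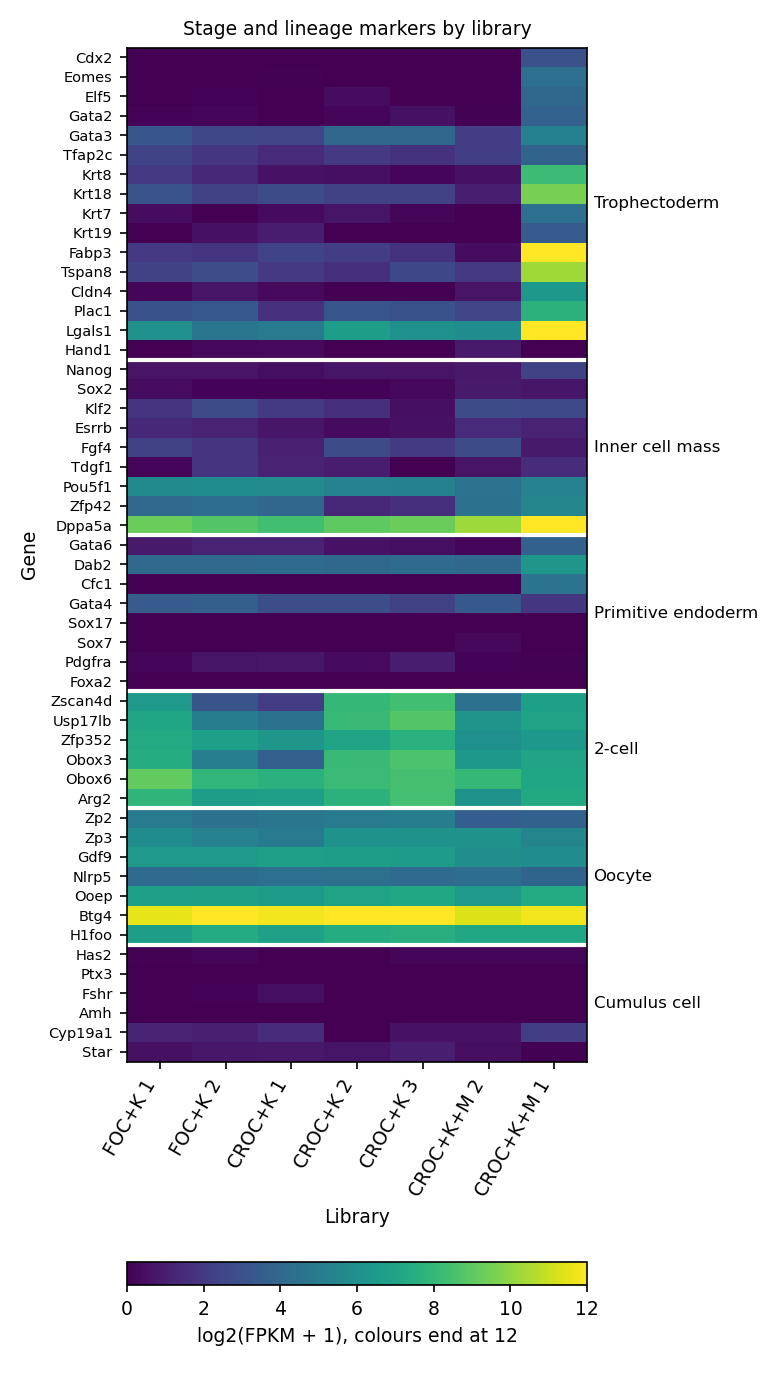
The colour of each cell is log2(FPKM + 1) of 1 gene (row) in 1 library (column), ending at 12, with the genes grouped by the stage or lineage they are known to mark. The last column, CROC+K+M replicate 1, differs from the other 6 columns in most trophectoderm rows and little in the 2-cell, oocyte and cumulus cell rows.

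Genes known to switch on towards the morula were the next group, with 13 of 37 as higher members and 23 above all 6 others. Cdh1, the E-cadherin that compacts the morula, was at 3.07 and 3.3 in FOC+K, at 2.22, 3.50 and 4.06 in CROC+K, at 3.54 in CROC+K+M replicate 2 and at 32.5 in CROC+K+M replicate 1. The other 6 libraries lay close together and this one was 6.62-fold above the highest. Gjb5, a gap junction protein, was at 30.1, at 0.23 in FOC+K replicate 2 and is listed at 0 in the other 5 libraries. Among 32 genes of cell junctions and polarity, 6 were higher members and 23 were above all 6 others, with a median difference of 1.74 on the log2 scale. They held Cldn7 at 170.5 against 3.85 to 11.9 and the desmosomal cadherin Dsg2 at 8.04 against at most 0.23.

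Of 31 genes for the transport of water, ions and nutrients, 6 were higher members and the list's median difference was 0.01, or -0.07 with equal FPKM sums. The proton pump gene Atp12a was at 11.7 against at most 0.11. The glucose transporter Slc2a3, which serves the apical side of trophectoderm, was at 41.4 against 1.38 to 3.14. The amino acid transporters Slc6a14, Slc7a6 and Slc38a1 were at 32.5, 26.9 and 6.99 against at most 1.89, 2.83 and 0.57. Among the 12 largest ratios in the whole set was a further transporter, the peptide carrier Slc15a2, at 301 against at most 0.98.

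Other members with large ratios encode an enzyme, secreted and membrane proteins and an actin-binding protein. Adh1, an alcohol dehydrogenase that acts on retinol, was at 1.23 and 2.09 in FOC+K, at 3.4, 2.36 and 0 in CROC+K, at 0 in CROC+K+M replicate 2 and at 1433 in CROC+K+M replicate 1. Dmkn, the secreted dermokine, was at 562 against at most 1.39, and Wfdc2, a secreted protein with protease inhibitor domains, at 412 against at most 0.83. Pdzk1ip1, a small membrane protein, was at 227 against at most 0.26. Sycn, a secretory granule protein, was at 91.7 and is listed at 0 in all 6 others. Serpinb6c, a serpin, was at 217 against at most 1.46, and Capg, which caps actin filaments, at 152 against at most 0.44. Genes of hormones and cytokines were also members, picked out here after their values had been seen: Il6 at 39.5 against at most 0.52, Sct (secretin) at 60.4 against at most 3.19, Gpha2 at 52.4 against 2.04 to 5.33 and Ren1 (renin) at 13.4 against at most 0.33.

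Actin cytoskeleton, annexin and S100 genes had the highest median difference of the 26 lists, 3.18 on the log2 scale. Of 39 genes 25 were higher members and 33 were above all 6 others. Tmsb10, which holds actin monomers, was at 231 and 203 in FOC+K, at 249, 420.1 and 466 in CROC+K, at 334 in CROC+K+M replicate 2 and at 7502 in CROC+K+M replicate 1. S100a11, a calcium-binding partner of annexins, was at 34.7 and 32.3, at 32.2, 29.1 and 23.9, at 18.8 and at 3075 in the same order. Both stood far above 6 similar libraries, by 16.1-fold and 86.2-fold. Crip1, a LIM protein of epithelia, was at 977 against 8.17 to 19.8, the tropomyosin Tpm1 at 233 against 0.45 to 4.53, and Anxa2, a membrane-binding annexin, at 206 against 6.14 to 15.9. Other genes of the list did not follow: Cfl1, the actin-severing cofilin, was at 1079 within the range of 339 to 1174, and Vil1, which bundles the actin of microvilli, was below all 6 others at 9.87 against 13.9 to 22.9. All 7 genes of the Arp2/3 complex, which branches actin filaments, were above all 6 others, and 4 were members; 6 of 12 annexin genes were members too. These 2 families were counted after the values had been seen.

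Of the 26 lists, the one with the most members was that of the respiratory chain and ATP synthase. Of 77 genes for oxidative phosphorylation 41 were higher members and 76 were above all 6 others, with a median difference of 2.81 on the log2 scale. Their FPKM summed to 82126 against 13291 to 24191. The members were 19 of 37 genes of complex I, 3 of 4 of complex II, 7 of 9 of complex III, 4 of 11 of complex IV and 8 of 15 of complex V. Ndufa5 of complex I was at 17.2 and 30.9 in FOC+K, at 44.6, 19.7 and 17.0 in CROC+K, at 46.0 in CROC+K+M replicate 2 and at 964 in CROC+K+M replicate 1. Uqcrb of complex III was at 71.6 and 106, at 94.3, 53.4 and 43.3, at 143 and at 1857 in the same order. In both, CROC+K+M replicate 2 was the highest of the other 6, and CROC+K+M replicate 1 was more than 10-fold above it. Cox7c of complex IV was at 2686 against 73.6 to 228, and Atp5j of ATP synthase at 2889.8 against 95.7 to 262.

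Not every subunit followed. Atp5b, the catalytic subunit of ATP synthase, was at 462 against 131 to 429, Cox8a at 6334 against 2953 to 5584 and the catalytic Sdha at 20.4 against 8.25 to 16.2, all above the others by less than 1.25-fold. The list's transcripts had a median length of 607 bases in the GENCODE mouse annotation. Length moved with the members in general: their median was 858.5 bases, against 1127 for other rows with an FPKM of 5 or more in the library. The share of genes meeting the rule was 16.3% for lengths up to 500 bases, 9.35% from 500 to 1000, 7.05% from 1000 to 2000, 3.99% from 2000 to 4000 and 1.22% above that. The part of length in the result was not tested. Among the binned rows, all with an FPKM of 5 or more in the library, the median difference also fell with length. It went from 0.77 on the log2 scale up to 500 bases to -0.18 above 4000. Median lengths were 772 bases for the actin, annexin and S100 list, 630 for ribosomal proteins and 1685 for trophectoderm.

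**Figure D4:**
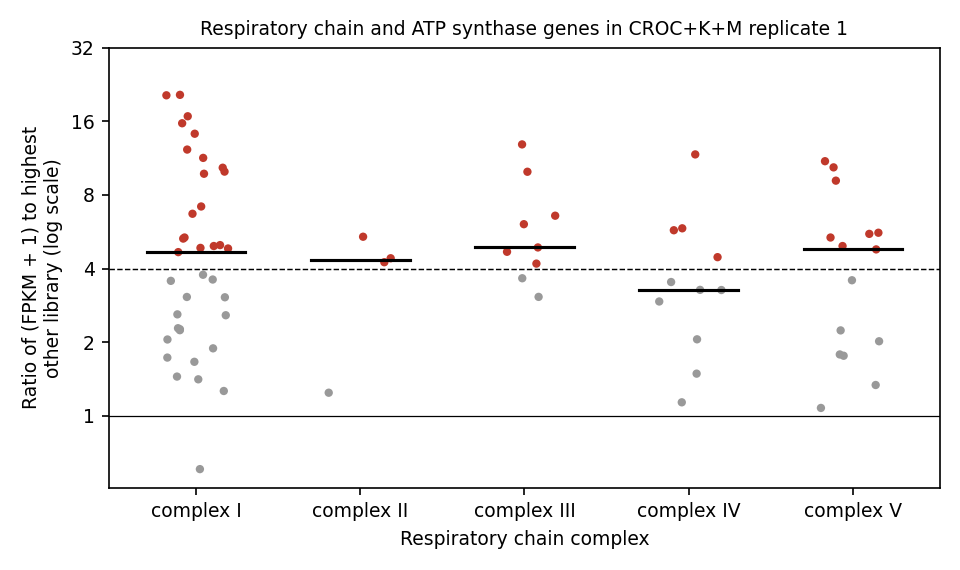
Each point is a gene of a respiratory chain complex or of ATP synthase (complex V), with the ratio of FPKM + 1 in CROC+K+M replicate 1 to that in the highest other library on a log axis. Black bars are medians, red points reach 4-fold (dashed line), and the medians of complexes I, II, III and V lie above that line.

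Genes of the protein synthesis machinery were higher by smaller amounts. Of 74 cytoplasmic ribosomal protein genes 68 were above all 6 others and 6 were members, with a median difference of 1.54 on the log2 scale. Rps18 was at 1104 against 70.0 to 135 and Rps27 at 1577 against 21.3 to 261. Of 77 mitochondrial ribosomal protein genes, a family counted after the values had been seen, 54 were above all 6 others and 16 were members. Ribosomal proteins, Ppia, Tmsb4x and Dppa5a have near-identical processed copies, so the assignment of their fragments is uncertain.

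Of the 12 members with the highest FPKM, Fabp3, Dppa5a, Tmsb10 and Lgals1 are described above. Crxos, a homeobox gene, was at 713 and 267 in FOC+K, at 197, 1741 and 1637 in CROC+K, at 932 in CROC+K+M replicate 2 and at 10546 in CROC+K+M replicate 1. Its FPKM varied 8.84-fold among the other 6, and on the FPKM + 1 scale the library was 6.06-fold above the highest of them. Cstb, an inhibitor of cysteine proteases, was at 3974 against 12.2 to 85.7. Tceb2, the adaptor elongin B, was at 4320.0 against 213 to 668, Gabarapl2, an autophagosome protein, at 3776 against 160.4 to 539, and the prolyl isomerase gene Ppia at 4006 against 540.3 to 832. The remaining 3 were the respiratory chain genes Uqcr10 (3369.8), Cox6a1 (3222) and Cox6b1 (3154), against at most 690.0, 551 and 549.

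Members from the metabolic lists were fewer. In the list of fatty acid binding and lipid metabolism 4 of 32 genes were members and 17 were above all 6 others. Besides Fabp3 they were Apoa1, an apolipoprotein, at 121 against at most 3.03, Plin2, which coats lipid droplets, at 95.5 against 4.97 to 19.2, and Acadl, which oxidises long-chain fatty acids, at 75.9 against 0.09 to 3.93. Of 20 glycolysis genes 2 were members, the hexokinase Hk2 at 11.4 against 0.47 to 1.02 and the bisphosphatase Fbp2, which runs the pathway in reverse, at 166 against at most 1.85. Of 33 genes for glutathione, redox and detoxification 4 were members and 19 were above all 6 others, among them thioredoxin, Txn1, at 683 against 28.7 to 85.2 and the mitochondrial peroxiredoxin Prdx3 at 90.5 against 2.98 to 13.4. Gstm1, a glutathione transferase, went the other way, at 18.5 against 46.4 to 435. Of 28 lysosomal and endocytic genes 6 were members, such as the tetraspanins Cd9 (1537 against 50.5 to 106) and Cd63 (3057 against 173 to 512) and the saposin precursor Psap (131 against 1.53 to 7.81).

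Of 44 apoptosis regulators 4 were members, 12 (27.3%) were above all 6 others and 6 (13.6%) were below all 6, with a median difference of 0.09, or -0.34 with equal FPKM sums. Of the rows with an FPKM of 1 or more in all 6 others, 25.2% were above and 22.2% below all 6. The members were Bax, which permeabilises the mitochondrial outer membrane, at 103 against 11.8 to 23.8, Bad, a BH3-only protein, at 56.0 against 0.58 to 2.16, the effector caspase Casp6 at 126 against 5.43 to 15.9, and Pdcd6, a calcium-binding protein, at 180.4 against 4.53 to 7.96. Bcl2l1, which encodes the survival protein Bcl-xL, was below all 6 others at 11.2 against 15.7 to 31.7.

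Of 32 imprinted genes 3 were members. Xist, the RNA that coats the inactive X chromosome, was at 1.26 and 3.67 in FOC+K, at 2.17, 0.44 and 0.45 in CROC+K, at 4.55 in CROC+K+M replicate 2 and at 24.6 in CROC+K+M replicate 1. Its antisense partner Tsix was at 62.9 against 0.60 to 9.29. The 2 genes overlap on opposite strands and the labels do not state whether strand was used in counting, so their reads cannot be told apart. Slc38a4, an amino acid transporter imprinted in the placenta, was at 75.5 against 0.17 to 2.31. On the X chromosome 33 of 1052 rows were higher members (3.14%), and the share on the other chromosomes ran from 1.09% to 3.11%.

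Transcripts of the 2-cell stage and the oocyte were present in this library as in the others. Of 46 genes of the transient 2-cell burst none was a member. Of all rows 2.29% were higher members, and at that share a list of this size would hold few or none. In the list 3 were above and 3 below all 6 others (6.52% each), against 19.2% and 10.1% of all rows. The list's FPKM summed to 2008, within the range of 955 to 4850.2 elsewhere. Zscan4d, the gene that gives the burst its best known marker, was at 86.9 and 7.56 in FOC+K, at 3.44, 257 and 332 in CROC+K, at 21.9 in CROC+K+M replicate 2 and at 107 in CROC+K+M replicate 1. The library lay in the middle of a wide spread. Obox6, an early homeobox gene, was below all 6 others at 137 against 199 to 551.

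Of 96 maternal oocyte transcripts 1 was a higher member, 6 were above all 6 others and 28 were below all 6, and none was a lower member. The member was Khdc3, of the subcortical maternal complex, at 295 against 6.71 to 17.6. The list's median difference was -0.27 on the log2 scale, against -0.04 for the 8639 rows with an FPKM of 1 or more in all 6 others, of which 22.2% were below all 6. Its sum of 108713 was within the range of 103905 to 179088. Gdf9, an oocyte growth factor, was at 55.2 against 60.9 to 109, Zp2, a protein of the egg coat, at 12 against 10.9 to 32.3, and Btg4, which clears maternal mRNA, at 3443 against 2635 to 5432. The size of this shift depends on the scale, because the members themselves add to the total. With every library scaled to the same FPKM sum the median was -0.85 and 73 of the 96 were below all 6. The 8639 rows then moved to a median of -0.58, with 4168 of them below all 6. As deposited, 14 of 37 genes of the meiotic spindle and 11 of 35 of mRNA storage and clearance were below all 6. So were 14 of 44 of chromatin and DNA methylation, Dnmt3l and Uhrf1 among them. These lists had no member in either direction, where 2.29% of all rows were higher and 0.0123% lower members.

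**Figure D5:**
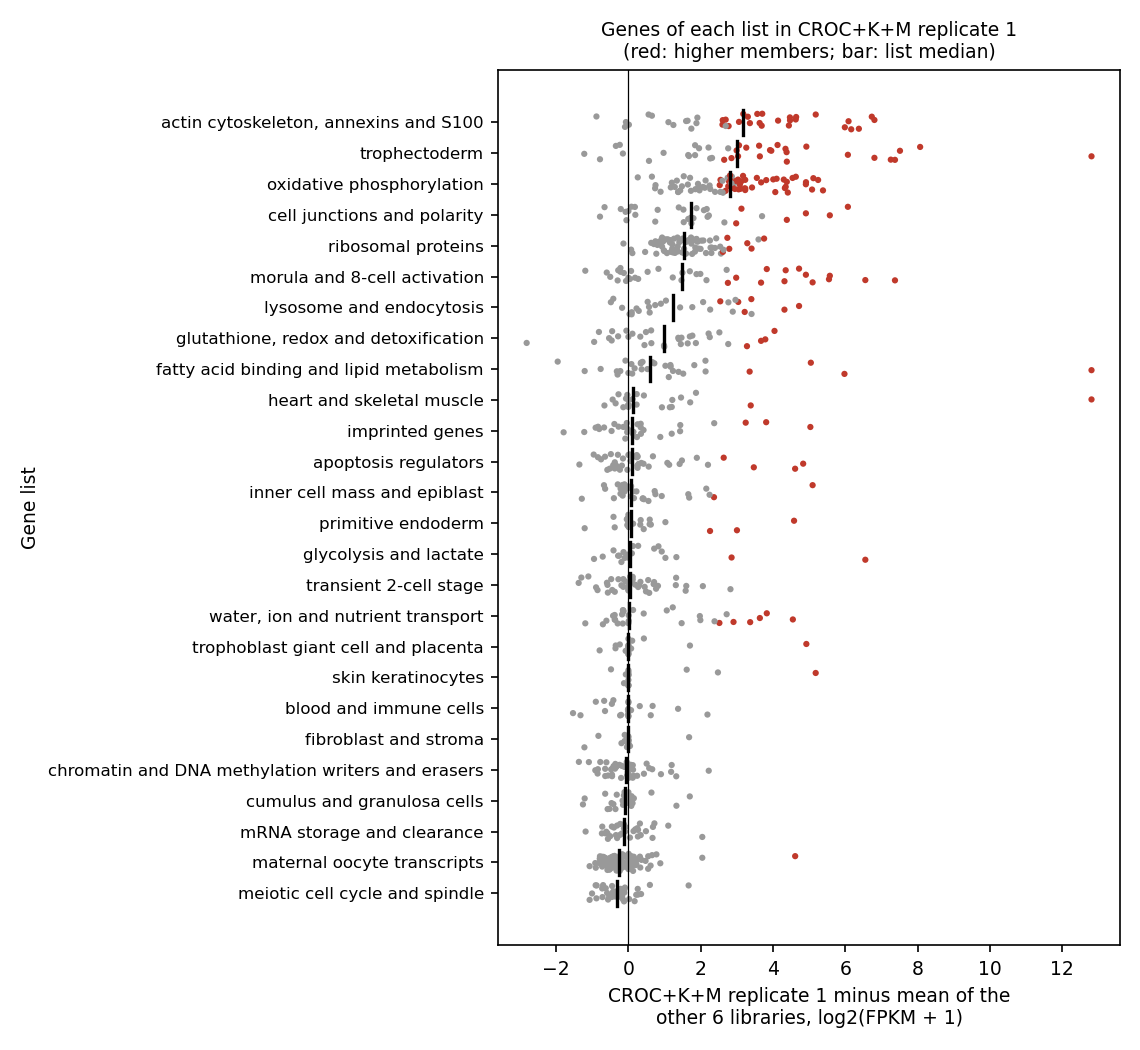
Each point is a gene of the list named at the left, placed by its log2(FPKM + 1) in CROC+K+M replicate 1 minus the mean of the other 6 libraries, with vertical bars at the list medians. Red points are higher members; the medians run from -0.31 for the meiotic cell cycle and spindle to 3.18 for actin cytoskeleton, annexins and S100.

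Markers of other cell types that a sample could hold were mostly at the level of the other libraries. None of 28 cumulus and granulosa cell genes was a member, and their FPKM summed to 34.5 against 32.8 to 49.7. None of 18 fibroblast genes (13.7 against 8.05 to 18.5) and none of 25 blood genes (48.8 against 50.9 to 70.4) was a member, and Ptprc is listed at 0 in all 7 libraries. Of all rows 2.29% were higher members, and at that share lists of such sizes would hold few or none. Of 25 heart and skeletal muscle genes 2 were members, Fabp3 and the troponin Tnnt2 at 10.1 against at most 0.22, while the cardiac myosin Myh6 is listed at 0. Of 15 keratinocyte genes Krtdap was a member at 47.2 against at most 1.55, and Krt5 and Krt14 are listed at 0 in all 7. Of 19 genes of trophoblast giant cells and placenta Plac1 was a member, and Prl3d1, the giant cell hormone, is listed at 0 in all 7. In all, 135 of the 557 higher members were in a list and 422 in none.

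The 3 lower members were few and from low values. Clps, a pancreatic colipase gene, was at 5.00 and 13 in FOC+K, at 5.00, 4.47 and 6.84 in CROC+K, at 19.8 in CROC+K+M replicate 2, and is listed at 0 in CROC+K+M replicate 1. Efhd1, a calcium-binding protein of mitochondria, was at 16.9 and 21.4, at 24.6, 8.28 and 13, at 20.6 and at 1.28 in the same order. CROC+K+M replicate 1 was the lowest of the 7 in both, and CROC+K+M replicate 2 was the highest for Clps and within the others' range for Efhd1. The remaining one has a clone name. Just outside the threshold were Moap1, Spa17 and Nupr1l, whose lowest other values were 3.04-fold, 2.96-fold and 2.80-fold above the library. At 2-fold, 55 of all 24319 rows were below all 6 others. None of them was among the 96 maternal or 46 2-cell genes, but so rare a call would leave few in lists of that size.

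The members were also compared among the 6 libraries that their choice set only an upper bound on. CROC+K+M replicate 2, the other melatonin library, held the highest of the 6 values in 125 of the 557 members (22.4%), and it held the highest in 19.4% of all rows above 0. CROC+K replicate 1 held 112 (20.1%, against 20.3% of all rows above 0) and FOC+K replicate 1 held 57 (10.2%, against 12.3%). FOC+K replicate 2 held 73 (13.1%, against 13.4%) and CROC+K replicate 3 held 92 (17%, against 18%). The widest gap was that of CROC+K replicate 2, which held 70 (12.6%, against 16.6%). The shares of members count the 28 members listed at 0 in all 6, and the shares of rows leave such rows out. The 2 kinds of share are therefore not on the same base, and their differences were not tested. In limma on these 6 libraries, with CROC+K+M replicate 2 set against the 3 CROC+K libraries, 0 of 11957 genes passed an adjusted p of 0.05 (0%), and 992 had an unadjusted p under 0.05 (8.3%). Of 403 higher members that passed the filter on low values, 244 were higher and 159 lower in CROC+K+M replicate 2. Their median difference was 0.20 on the log2 scale. Of all 11957 genes tested, 6268 were higher and 5689 lower, with a median difference of 0.04. With 1 library on the melatonin side, the test takes its spread from the other libraries.

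The leading members did not move together in that comparison. Dppa5a was higher in CROC+K+M replicate 2 by 1.35 ± 0.43 (SE) on the log2 scale, with a limma adjusted p of 0.565. Fabp3 changed by -1.72 ± 0.45 and Krt18 by -1.45 ± 0.47, with limma adjusted p of 0.562 and 0.567. Krt8 was at 0.14 ± 0.49 and Lgals1 at -0.05 ± 0.74, with limma adjusted p of 0.957 and 0.993. Apoc1, an apolipoprotein gene, was picked out here after the values had been seen, as the member that ranked first by limma p. Its FPKM was 447 in CROC+K+M replicate 1, 70.5 in CROC+K+M replicate 2 and 9.60 to 19.5 in the other 5. CROC+K+M replicate 2 was above CROC+K by 2.12 ± 0.43 in this gene. Fabp3 and Krt18 were thus lower, and Dppa5a and Apoc1 higher, in the melatonin library than in CROC+K, none of them past the threshold.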

How the data were processed

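RNA was sequenced in 7 libraries (2 FOC+K, 3 CROC+K, 2 CROC+K+M). Per the labels, cDNA was made with the SMARTer Ultra Low Input kit and libraries with ScriptSeq v2. Tools listed in the submitters' processing notes are Cuffnorm, Cufflinks 2.2.1, R 3.3.2 and STAR 2.5.2b, beside the build mm9. The annotation and the use of strand were not given in the sources used here, nor was scaling between libraries. The deposited table holds the authors' FPKM value of each of 24319 gene symbols in each library, without counts. Depth was read from the steps between low values, of which 76.8% to 84.8% per library lay within 0.15 of a whole step among those up to 4 steps, with 200 bases taken off each length. Promoters are RefSeq's for GRCm38.p6 and no mm9 coordinates are given.

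FPKM was used as deposited. Ratios are of FPKM + 1, so a fold is on the log2(FPKM + 1) scale. The members, the 26 gene lists (917 symbols, 897 in the table) and the rules were chosen with earlier results of these data known. The genes named are the 12 highest and the 12 with the largest ratio among higher members, the lower members, the 3 genes on each side of a threshold, up to 6 members and up to 4 other defining genes of each list, and those said to have been picked out later. For the 6 other libraries limma 3.58.1 (R 4.3.3, intensity trend, two-sided, Benjamini-Hochberg) was fitted to log2(FPKM + 1) of genes with an FPKM of 1 or more in at least 2 libraries, small RNA genes left out, with 3 residual degrees of freedom. On simulated libraries of 11957 genes the fit recovered 0, 12, 28 and 42 of 50 genes changed 2-, 4-, 8- and 32-fold, with 2 false calls. The changed genes were drawn only from those above a minimum mean level. Many higher members had low values in the other 6 libraries, where the median of their median FPKM was 2.54. Recovery of such low genes was not simulated. Other computing used Python 3.11.15. Alternatives were other pseudocounts, scalings, thresholds, a fit with a replicate block and leaving out each library. Values of 3 genes that the rule takes are not reported here.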

Additional observations from a re-analysis of the deposited data

How the results depend on the processing

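The 557 higher and 3 lower members depend on the scale and thresholds. The higher members numbered 349 with a pseudocount of 5, 340 with equal FPKM sums, 1214 at a 2-fold ratio and 257 at an 8-fold ratio; with upper quartile scaling and quantile normalization they numbered 433 and 409, all of them among the 557. The lower members numbered 75 with a pseudocount of 0.1, 5 with 0.5, 0 with 5, 55 at 2-fold and 0 at 8-fold. Leaving out 1 other library at a time gave 571 to 611 higher and 3 to 4 lower members. For the lists the scalings were added after seeing the data: with equal FPKM sums, trophectoderm had 15 of 38 as members, the actin list 19 of 39, oxidative phosphorylation 21 of 77, ribosomal proteins 2 of 74, primitive endoderm 1 of 22, the inner cell mass list 1 of 33, the lysosome list 3 of 28, the glutathione list 2 of 33, the transport list 4 of 31 and imprinted genes 2 of 32; with quantile normalization the oxidative phosphorylation count was 19. The median of all 24319 rows moved by -0.04 with equal sums. There were 558 values of 62 named genes under 9 alternatives. Of these, 451 moved by less than the spread of the other 6 libraries or not at all, 107 by more and 0 changed sign. However, 6 of the 9 alternatives each left out 1 other library. That changes a ratio to the nearest library only if the nearest one is left out, and then only widens it. The 451 therefore include many values that could not move, and those from leaving out a library could not change sign. In limma, CROC+K+M replicate 2 against CROC+K gave 0 calls (992 genes at an unadjusted p under 0.05), 98 calls without a filter on low values, all higher, and 0 with a pseudocount of 0.1 (971) and with quantile normalization (1033). Leaving out 1 FOC+K or CROC+K library gave 0 to 0 calls, with 518 to 2463 genes at an unadjusted p under 0.05, the most without CROC+K replicate 1. The fit with the replicate block left 1 residual degree of freedom. Deviations of same-numbered FOC+K and CROC+K libraries correlated at -0.47 and -0.31 across 8639 genes. FOC+K replicate 1 correlated at 0.31 with CROC+K replicate 2 and at 0.35 with CROC+K replicate 3. The deviations of 2 FOC+K libraries mirror each other, so these values are not independent. Whether libraries of different groups shared a batch was not tested. No alternative leaving out CROC+K+M replicate 2 was possible in limma, since it is the sole melatonin library of that fit. Depth limits genes near an FPKM of 5 most.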
